A study of Homo sapiens with 12 samples.

Results

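Dense clusters of wild-type PPARγ peaks are stretches of the genome where the receptor gave several binding peaks close together. The summits of the pooled wild-type peak list on chromosomes 1 to 22 and X were sorted, neighbours at most 12500 bp apart were joined into chains, and chains with 4 or more peaks were kept. This gave 536 chains with 2523 member peaks, which is 10.0% of the 25164 pooled wild-type peaks. The members were chosen by the summit positions of the pooled wild-type peaks, so the number and spacing of the wild-type peaks, and their presence in the wild-type libraries that made the pooled list, are given as a description. The KQ peak lists took no part in the choice.

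The series mapped PPARγ by chromatin immunoprecipitation and sequencing (ChIP-seq) in MCF10A-NeuT cells, which are MCF10A breast epithelial cells made tumour-like with the oncogene NeuT. All groups share this NeuT background, and the genotypes are a vector control, wild-type PPARγ (PPARg-WT) and the mutant K154/155Q (PPARg-KQ), in which a pair of lysines is replaced by glutamine. The receptors were brought in with a pMSCV-IRES-GFP retrovirus and expressed stably from it in addition to the cells' own gene. Each genotype has 2 ChIP and 2 input libraries, of which the 2 wild-type and 2 KQ ChIP libraries and 1 pooled peak list of each group are described, and vector and input libraries were left out. The labels name both a PPARγ antibody and an anti-Flag pull-down, and the cells still have their own PPARG gene, so binding of the introduced receptor and of the cells' own receptor cannot be told apart. They do not say whether the libraries of a group came from separate cultures. The wild-type lists held 18143 and 17859 peaks and the KQ lists 1263 and 1035, and the pooled KQ list held 2846. Peak lists carry no read totals, so the depth behind a peak is unknown, and they do not measure expression, so the cell type could not be checked against marker genes.

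PPARγ binds DNA as a heterodimer with RXR at a direct repeat of the hexamer AGGTCA with 1 base between the copies, called DR1. In adipocytes, where it is the master regulator of fat storage, many of its sites lie in groups around genes for lipid droplets, fatty acid transport and fatty acid breakdown. Joining neighbouring sites over a fixed distance is a common way to outline large enhancer regions, and a group of sites found this way says nothing by itself of enhancer activity.

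The start-site windows used ran from 250 bases before to 50 after the start. A set of 5 member peaks overlapped such a window of a gene on the lists of PPAR targets, adipocyte genes or nuclear receptors. Each of the 5 had a peak in each wild-type library. They are shown because they place chain members at a promoter, whereas most members lie elsewhere. The ECH1 member 0.157 kb outside that gene, described below, is not in the set. It crossed no ECH1 window among those used. Of the 5 peaks, 4 reach the start site itself, and the ETFB peak leaves the 76 bases before the start uncovered. The 250 bases before the start site are from RefSeq (GRCh38.p14, the assembly of hg38), printed 5′ to 3′ on the gene's own strand, and capitals mark a stretch of 13 bases with the fewest mismatches to DR1 (AGGTCANAGGTCA) on either strand.
PLIN4: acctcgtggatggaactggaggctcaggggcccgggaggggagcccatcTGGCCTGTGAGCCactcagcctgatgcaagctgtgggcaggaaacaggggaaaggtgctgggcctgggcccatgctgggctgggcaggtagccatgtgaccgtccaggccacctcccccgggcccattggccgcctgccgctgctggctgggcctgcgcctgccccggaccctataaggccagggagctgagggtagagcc
CIDEC: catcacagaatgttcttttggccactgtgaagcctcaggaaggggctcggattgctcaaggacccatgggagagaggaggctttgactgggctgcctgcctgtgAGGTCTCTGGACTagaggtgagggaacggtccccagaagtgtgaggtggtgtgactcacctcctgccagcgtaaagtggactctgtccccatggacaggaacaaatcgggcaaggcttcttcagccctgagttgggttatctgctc
ETFB: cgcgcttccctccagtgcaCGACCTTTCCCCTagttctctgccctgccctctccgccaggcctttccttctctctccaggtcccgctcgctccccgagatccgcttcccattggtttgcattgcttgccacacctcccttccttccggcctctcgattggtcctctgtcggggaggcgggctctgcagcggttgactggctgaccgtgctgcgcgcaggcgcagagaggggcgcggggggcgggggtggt
NR1H3: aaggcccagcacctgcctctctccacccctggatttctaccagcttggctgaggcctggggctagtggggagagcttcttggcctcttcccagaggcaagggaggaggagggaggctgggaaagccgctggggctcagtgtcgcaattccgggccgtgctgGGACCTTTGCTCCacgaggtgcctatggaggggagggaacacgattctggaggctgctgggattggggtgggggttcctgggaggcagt
PPARG: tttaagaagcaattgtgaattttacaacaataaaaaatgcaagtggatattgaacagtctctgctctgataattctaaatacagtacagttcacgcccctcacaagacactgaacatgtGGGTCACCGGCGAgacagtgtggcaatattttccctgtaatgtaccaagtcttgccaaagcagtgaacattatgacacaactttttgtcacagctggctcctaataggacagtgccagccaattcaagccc

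The windows, in hg38, are chr19:4518487-4518736 (minus strand, PLIN4), chr3:9878813-9879062 (minus, an internal start of CIDEC), chr19:51366389-51366638 (minus, ETFB), chr11:47257457-47257706 (plus, an internal start of NR1H3) and chr3:12351167-12351416 (plus, an internal start of PPARG). The capital stretches of PLIN4 and ETFB had 3 mismatches among the 12 fixed letters, and those of CIDEC, NR1H3 and PPARG had 4. CIDEC held 1 other stretch and NR1H3 2 others with as few mismatches, of which the first one met in the search is marked. All 5 stretches lay inside the peak. Of all 34961 RefSeq start-site windows used, which leave out chromosome 8, 18.0% held a stretch at least as close as that of PLIN4 in their 250 bases before the start. A stretch with at most 4 mismatches was held by 68.7%, and 6 windows held an exact DR1. The chains at FABP4 and DECR1 lie on chromosome 8 and are named without a sequence. Of the 2523 members, 129 (5.11%) crossed any start-site window used, and 90 crossed a window of a protein-coding gene. The same share over all pooled wild-type peaks is not given, so the 5.11% is not compared with it. The 180 members on chromosome 8 are among the 2523 but had no window to cross.

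Most chains were short, and chain coordinates below run from the first to the last summit, while peak coordinates give the whole peak. There were 325 chains of 4 peaks, 129 of 5, 40 of 6, 19 of 7 and 23 of 8 or more, and the longest held 12 peaks. The distance from the first to the last summit had a median of 15.4 kb and ran from 1.81 to 56.6 kb, and the median step between neighbouring members was 3407 bp. The median fold enrichment over the caller's background, the authors' value, was 6.01 for members (quartiles 4.79 and 7.94) and 6.19 for the 22641 peaks in no such chain (5.03 and 8.08). The median peak width was 206 and 193 bp. Just outside the rule, chains of 3 peaks held 2769 peaks with a median fold of 6.08, against 6.05 for the 1300 members of chains of 4 just inside it.

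**Figure D1:**
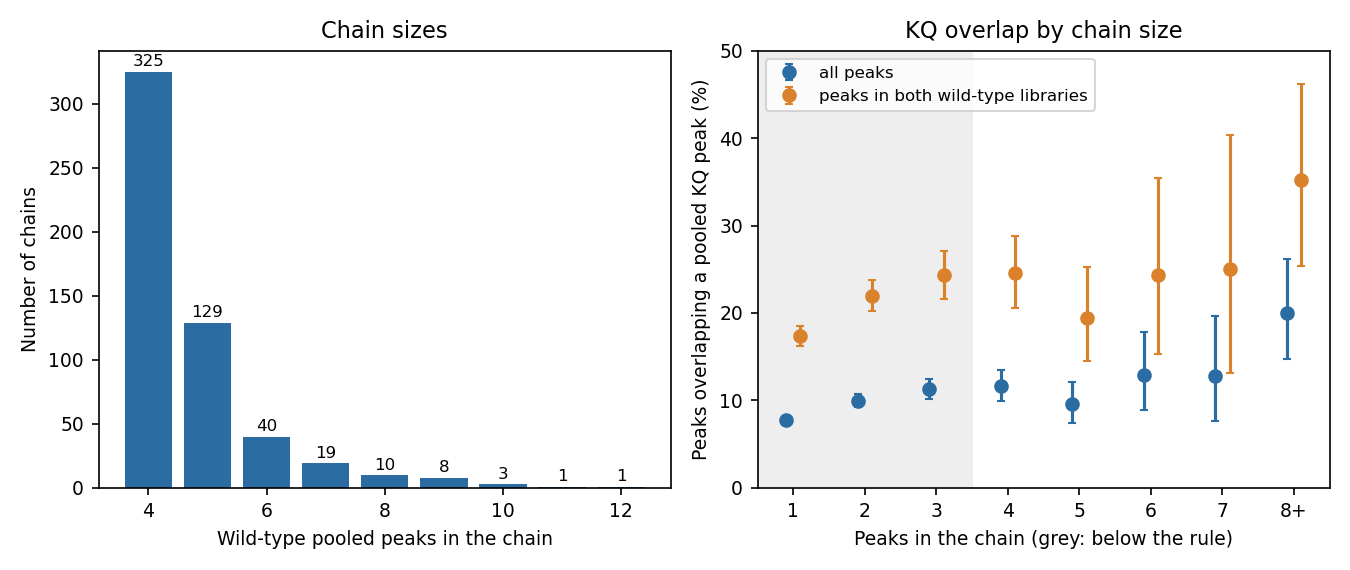
Left, number of chains (vertical axis) by the number of pooled wild-type peaks they hold, where 325 of 536 chains have 4 peaks. Right, percent of wild-type peaks that overlap a pooled KQ peak by chain size with exact 95% binomial intervals, for all peaks and for peaks present in both wild-type libraries; the share is 7.75% for lone peaks and 20.0% in chains of 8 or more.

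Within the wild-type libraries, most chains held some reproducible members and others seen in 1 library or in the pooled list alone. Of the 2523 members, 1617 (64.1%) overlapped a peak of wild-type library 1, 1280 (50.7%) one of library 2, 875 (34.7%) one of both and 501 (19.9%) one of neither. Over all pooled wild-type peaks the shares were close to these, with 62.7% in library 1, 48.8% in library 2, 31.9% in both and 20.4% in neither. A chain held at least 1 member present in both libraries in 453 of 536 cases (84.5%), at least 2 in 268 (50.0%) and at least 4 in 33 (6.16%), and 83 chains held none. When library peaks were counted inside each chain, 174 chains held 4 or more peaks of library 1 and 99 held 4 or more of library 2. In 52 chains both libraries reached 4, and 315 chains reached 4 peaks in the pooled list and in neither library.

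Members kept a KQ peak in 302 of 2523 cases, or 12.0% (exact 95% interval 10.7 to 13.3). Over all pooled wild-type peaks the share was 9.1%, and for the peaks in no such chain it was 8.78% (8.41 to 9.15). Peaks of 1 chain share their region and are not replicates, so these intervals cover counting error only and no test was made. KQ library 1 had a peak at 139 members (5.51%, against 4.16% of all wild-type peaks) and KQ library 2 at 110 (4.36%, against 3.31%). Both KQ libraries had a peak at 47 members (1.86%, against 1.35%). Of the 302 members kept, 120 overlapped a peak of the pooled KQ list alone and of no single KQ library. The same count over all pooled wild-type peaks is not given, so the 120 are not read as a trait of chain members.

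Of the 302 kept members, 213 (70.5%) were present in both wild-type libraries and 16 in neither, and of all pooled wild-type peaks with a KQ peak 70.7% were present in both. Among the members present in both wild-type libraries, 213 of 875 (24.3%, 21.5 to 27.3) kept a KQ peak, against 19.6% (18.7 to 20.6) of the 7158 such peaks in no chain. The median wild-type fold was 8.52 for kept members and 5.81 for the other members, and for the peaks in no such chain it was 9.03 and 6.05.

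The share with a KQ peak was 7.75% for lone wild-type peaks, 9.95% in chains of 2 and 11.3% in chains of 3. Inside the rule it was 11.6% in chains of 4, 9.61% in chains of 5, 12.9% in chains of 6, 12.8% in chains of 7 and 20.0% (14.8 to 26.1) in the 23 chains of 8 or more. The intervals of the chains of 4 to 7 peaks overlap each other. Of the 41 kept members in chains of 8 or more, 17 came from 4 chains, near CD93 and FABP4 and in LAMA4 and TRAF3IP2, and without these 4 the share was 14.3% (9.37 to 20.5).

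**Figure D2:**
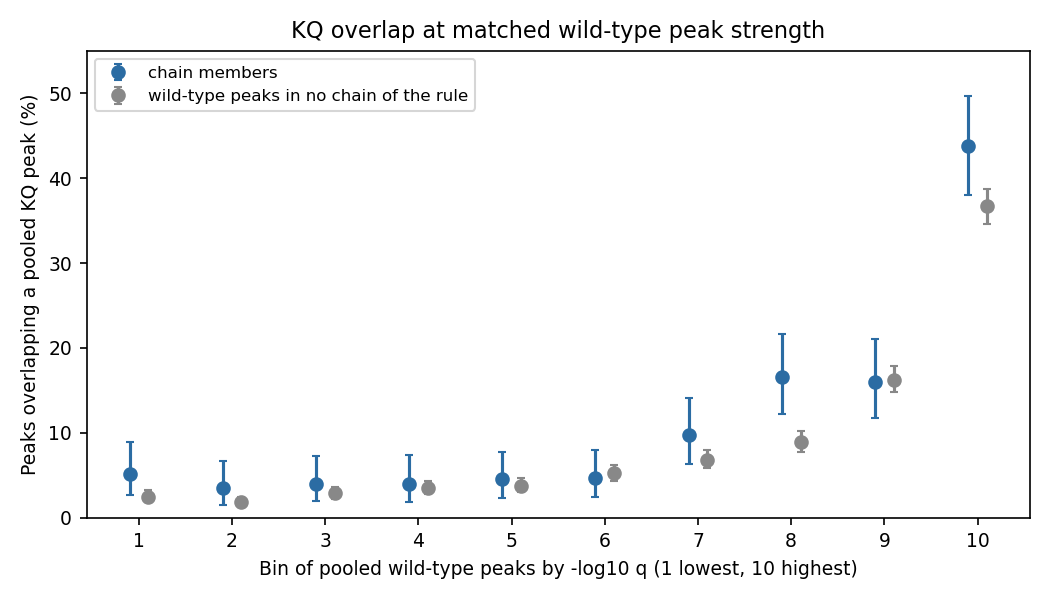
Percent of wild-type peaks that overlap a pooled KQ peak (vertical axis) in 10 equal bins of all pooled wild-type peaks by −log10 q (horizontal axis), for chain members and for peaks in no such chain, with exact 95% binomial intervals. The highest bin has the highest share in both series, 43.8% and 36.7%.

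Because the share with KQ differs with wild-type peak strength, members were compared with other peaks at matched strength. The members had the higher share in 8 of 10 bins of −log10 q. In the highest bin 130 of 297 members (43.8%, 38.0 to 49.6) and 36.7% (34.7 to 38.7) of the other peaks had a KQ peak. In the bin with −log10 q from 12.7 to 16.9 the shares were 16.5% (12.2 to 21.6) and 8.95% (7.81 to 10.2), the 1 bin where the intervals did not overlap. In the bin from 17.0 to 25.1 they were 16.0% and 16.3%. Weighted to the bins of the members, the share of the other peaks was 9.53%, against 12.0% for the members.

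Counted by chain, 226 of 536 (42.2%, 37.9 to 46.5) held at least 1 member with a KQ peak. These were 172 chains with 1 such member, 38 with 2, 11 with 3, 4 with 4 and 1 with 5, so most of these chains kept 1 site. Among the 172 chains with a single kept member, that member was the one with the highest −log10 q of its chain in 100 (58.1%). A single chain, at the edge of the noncoding RNA gene NEAT1, kept every member. The KQ list formed 4 chains of its own by the same rule with 17 peaks in all, and all 4 lay on wild-type chains, at TRAF3IP2, FABP4, NEAT1 and the stretch near CD93. Chain stretches held 11 pooled KQ peaks that overlapped no member.

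**Figure D3:**
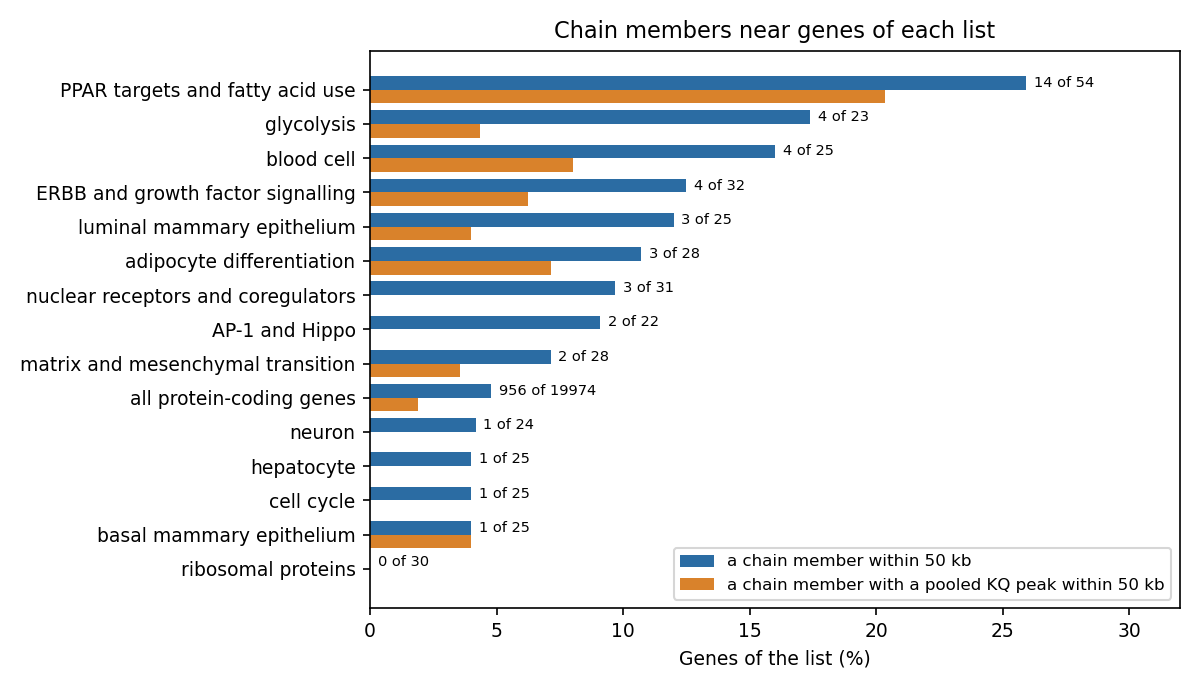
Percent of genes in each list (horizontal axis) with a chain member within 50 kb of the gene span, and with a chain member that overlaps a pooled KQ peak, with the number of genes beside the bar. PPAR targets and fatty acid use stand at 25.9% and 20.4%, and all protein-coding genes at 4.79% and 1.91%.

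Several genes of fatty acid use lay near chains, most of which kept a KQ peak. Of the 54 genes on the list of PPAR targets and fatty acid use, 14 (25.9%) had a chain member within 50 kb of the gene span, against 4.79% of all 19974 protein-coding genes, and 11 (20.4% against 1.91%) had a member that kept a KQ peak. Among the 14 were ANGPTL4, FABP4, PLIN2, PLIN4, PLIN5, CIDEC, LIPE, G0S2, ACSL5, ECH1, HADH, ETFB and ACADVL. PLIN4, PLIN5 and ACADVL were the 3 without a KQ peak at their chain. A pooled wild-type peak of any kind lay within 50 kb of 94.4% of the list and of 67.1% of all genes. The list was drawn up with earlier results of these data known, so its count is a description.

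Among the other lists the counts were small, and several shares also lay above the 4.79% of all protein-coding genes. Glycolysis had 4 of 23 genes near a chain (17.4%; ENO1, ENO2, HK1 and SLC2A3) and blood cell markers 4 of 25 (16%, CD14, CSF1R, GNLY and NKG7). ERBB and growth factor signalling had 4 of 32 (12.5%, HBEGF, SHC1, SOS1 and TGFA) and luminal mammary epithelium 3 of 25 (12%, AGR2, CDH1 and EPCAM). Adipocyte differentiation had 3 of 28 (10.7%, EBF1, KLF15 and PPARG) and nuclear receptors and coregulators 3 of 31 (9.68%, NR1H3 and NR3C1 among them). AP-1 and Hippo had 2 of 22 (9.09%, FOSL2 and JUNB) and matrix genes 2 of 28 (7.14%, COL4A2 and ZEB2). Basal mammary epithelium (LAMB3), cell cycle (TOP2A), hepatocyte (G6PC1) and neuron (DLG4) markers had 1 gene each, and 0 of 30 ribosomal protein genes lay near a chain.

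The chains near PPAR target and adipocyte genes numbered 16, with 88 members. In them 41 members (46.6%) were present in both wild-type libraries and 21 (23.9%) kept a KQ peak, against 34.7% and 12.0% of all members. At least 1 member kept a KQ peak in 13 of the 16 chains (81.2%), against 42.2% of all chains. The chains were not matched for number of members or peak strength. In 9 of the 16 the member with the highest −log10 q was among those kept, against 26.5% of all chains. The median wild-type fold of the 88 was 6.77.

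**Figure D4:**
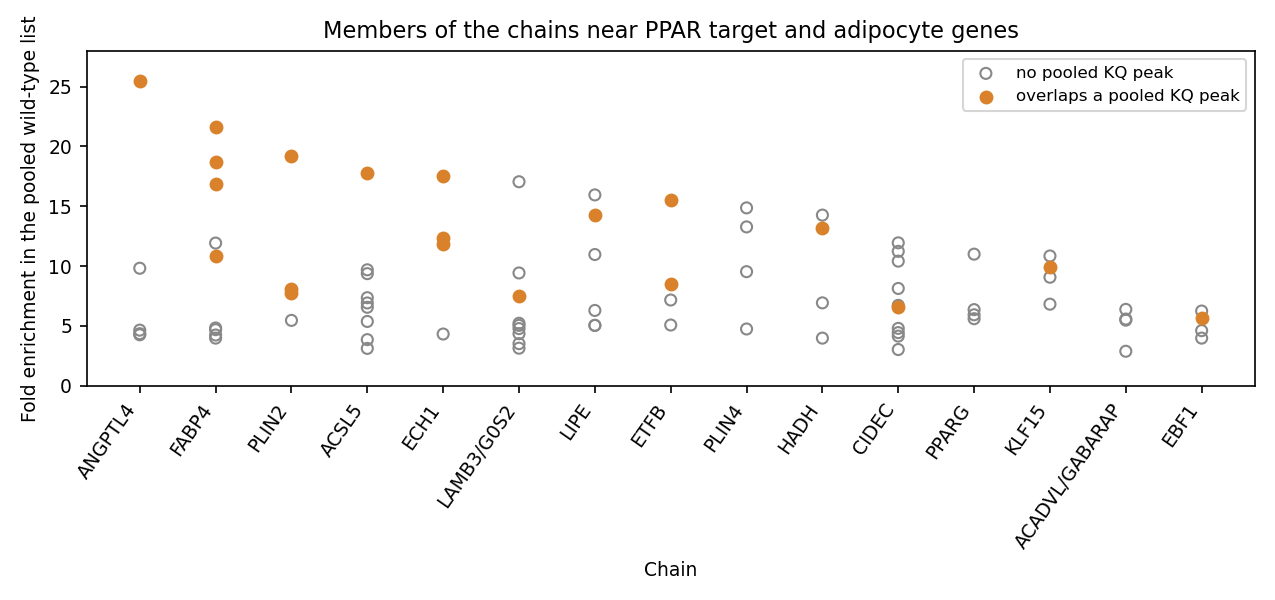
Fold enrichment in the pooled wild-type list (vertical axis) of each of the 84 members of 15 chains near PPAR target and adipocyte genes, ordered by their highest member; filled points overlap a pooled KQ peak. The highest member is filled at ANGPTL4, FABP4, PLIN2, ACSL5, ECH1 and ETFB. It is open at all other chains drawn, which are LAMB3/G0S2, LIPE, PLIN4, HADH, CIDEC, PPARG, KLF15, ACADVL/GABARAP and EBF1.

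Lipid carrier and droplet genes showed both kinds of chain, with and without KQ peaks. The chain near FABP4, a fatty acid carrier of adipocytes, held 9 members over 15.8 kb from 0.16 kb outside the gene outward (chr8:81483393-81499227), and 4 of them kept a KQ peak. Its highest member, at chr8:81488246-81488592, had a fold of 21.7 in the pooled wild-type list, 10.7 in library 1 and 17.9 in library 2, and 5.28 in the pooled KQ list with no peak in either KQ library. Its next member, at chr8:81492477-81492847, had folds of 18.7 pooled, 15.7 and 15.3 with wild type and 4.51 pooled, 3.32 and 5.78 with KQ, in the order pooled list, library 1 and library 2 that is used throughout. It was the 1 site of this chain found in all 4 libraries.

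The chain nearest to PLIN2, which coats lipid droplets, lay 34.4 kb or more from that gene (chr9:19161871-19184335) and kept 3 of its 4 members. The member at chr9:19161574-19162098 was present in every list, with folds of 19.2 pooled, 12.7 and 20.6 with wild type and 8.14 pooled, 7.29 and 12.5 with KQ. The other kept members had wild-type folds of 7.71 and 8.06 and were each seen in 1 wild-type library.

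PLIN4 and CIDEC had strong wild-type promoter peaks, and their chains had few or no KQ peaks. PLIN4 coats small lipid droplets, and PLIN5, which lies next to it, ties droplets to mitochondria. Their chain held 4 members (chr19:4505098-4521734), 3 of them present in both wild-type libraries, and 0 with a peak in any KQ list. The promoter peak printed above for PLIN4 had its summit 177 bp before the start, with folds of 13.3 pooled, 8.22 in library 1 and 19.8 in library 2, and the member 0.797 kb from PLIN5 had 14.9, 13.5 and 14.0. CIDEC fuses lipid droplets, and its chain held 10 members over 41.6 kb (chr3:9861763-9903380). The peak at the internal CIDEC start printed above had folds of 11.9 pooled, 6.66 and 11.7, and no KQ peak. The peak at the outer CIDEC start, with its summit 0.135 kb outside the gene, had 10.4 pooled and 9.08 in library 1. It had no peak in wild-type library 2 or in any KQ list. The 1 CIDEC member with a KQ peak, at chr3:9864508-9864699, had a wild-type fold of 6.58 and a pooled KQ fold of 2.67.

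**Figure D5:**
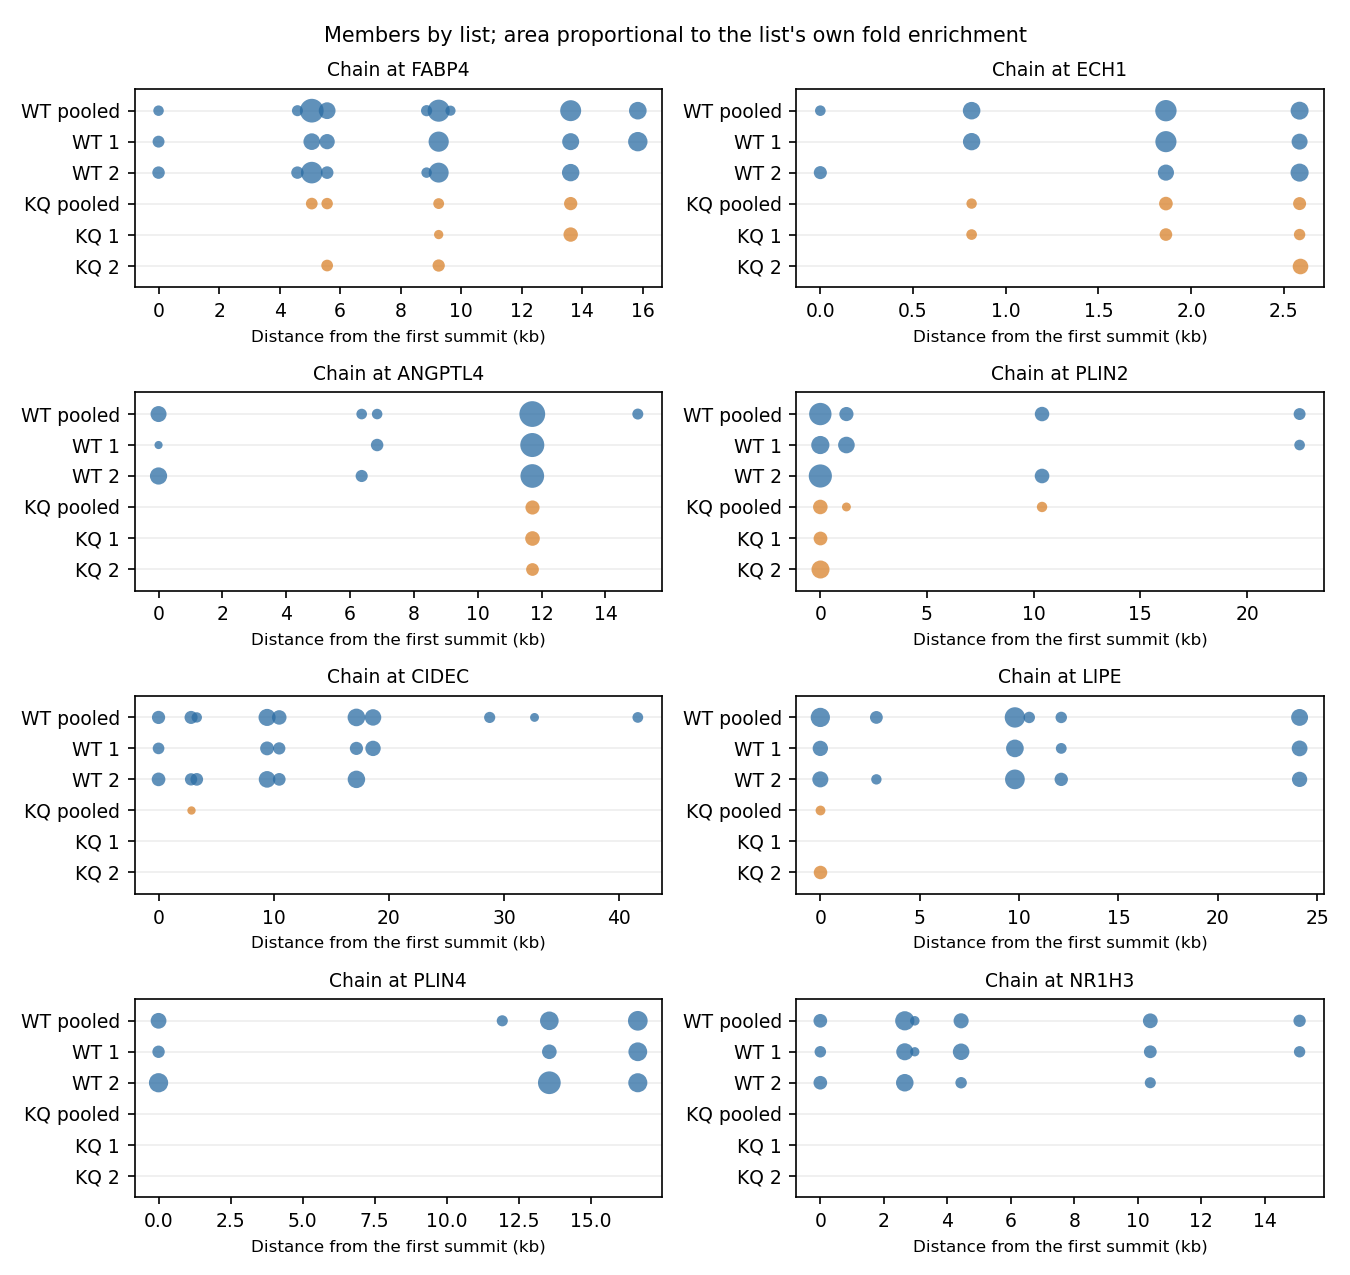
Members of 8 chains by distance from the first summit in kb (horizontal axis), with a row for each list and a circle where that list has a peak, its area proportional to the list's own fold enrichment. ANGPTL4 shows 1 site in all 6 lists, FABP4 and ECH1 show several sites with KQ, and PLIN4 and NR1H3 show none with KQ.

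Genes that release fatty acids or hold back their release had chains with 1 dominant or several moderate sites. ANGPTL4, a secreted inhibitor of lipoprotein lipase, had a chain of 5 members (chr19:8355844-8370859) in which 1 site stood apart. That site, at chr19:8367225-8367739 inside the gene, had folds of 25.5 pooled, 22.2 and 21.5 with wild type and 7.66 pooled, 8.21 and 6.24 with KQ. The other 4 members had pooled wild-type folds from 4.26 to 9.82 and no pooled KQ peak.

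LIPE encodes hormone-sensitive lipase. Its chain (chr19:42409681-42433799) held 6 members, 5 in LIPE and 1 in CXCL17, of which 4 had a peak in each wild-type library. The strongest, at chr19:42419350-42419662, had folds of 16.0 pooled, 12.0 and 14.9 and no KQ peak, whereas the member at chr19:42409554-42409815, with 14.2 pooled, 9.03 and 9.88, had KQ folds of 3.70 pooled and 7.01 in library 2. The strongest LIPE site was thus not the one kept.

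G0S2 inhibits triglyceride lipase, and its chain of 9 members also reaches into LAMB3, a laminin chain of the epithelial basement membrane (chr1:209648976-209674118). The strongest member, 4.57 kb from G0S2, had folds of 17.1 pooled, 12.5 and 15.1 and no KQ peak. A weaker member 1.29 kb from G0S2 had 7.51 pooled, 7.02 and 5.84 and kept a KQ peak, with 3.45 pooled and 5.37 in KQ library 2.

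Of the 6 chains described at fatty acid activation and oxidation genes, 4 kept their member of highest fold. The DECR1 chain is 1 of these 4 and was named for its kept members, so the count only describes these chains. ACSL5, an acyl-CoA synthetase, had the longest chain, 9 members over 56.6 kb (chr10:112333073-112389687), and its strongest member, inside the gene, had folds of 17.8 pooled, 14.9 and 12.1 with wild type and 5.80 pooled and 5.45 in library 1 with KQ. ECH1, a dienoyl-CoA isomerase of fatty acid oxidation, had a tight chain of 4 members within 2.58 kb (chr19:38829366-38831951), of which 3 kept a KQ peak. The ECH1 member at chr19:38831770-38832105, with its summit 0.157 kb from the gene end, was present in every list, with folds of 12.4 pooled, 9.83 and 12.5 with wild type and 6.50 pooled, 5.01 and 9.38 with KQ. The member of highest fold, 17.5, had a peak in KQ library 1 and not in library 2.

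ETFB, a subunit of the electron transfer flavoprotein, kept 2 of 4 members (chr19:51350898-51366580). Its promoter peak had folds of 15.5 pooled, 15.0 and 14.1 with wild type and 6.32 pooled and 5.92 in library 1 with KQ, with its summit 192 bp before the ETFB start and 0.159 kb from CLDND2. It was the 1 promoter of the 5 printed above with a KQ peak. HADH, the short-chain hydroxyacyl-CoA dehydrogenase, kept the site inside the gene with folds of 13.2 pooled, 8.72 and 9.57 with wild type and 4.81 pooled and 6.62 in library 1 with KQ. Its member of highest fold, 14.3, lay 11.1 kb from the gene and overlapped a peak of KQ library 2 (fold 6.22) but no pooled KQ peak.

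DECR1, the 2,4-dienoyl-CoA reductase of the same pathway, was not on the list but is named by its 3 kept members of 7 (chr8:89998535-90012887). The strongest was present in every list, with folds of 16.1 pooled, 12.4 and 19.0 with wild type and 6.99 pooled, 8.32 and 8.71 with KQ. The chain counted near ACADVL had 4 weak members (chr17:7241957-7270707) with pooled wild-type folds from 2.88 to 6.38, 1 of them present in both libraries and 0 with KQ. It lies over GABARAP, CTDNEP1 and ELP5, and not over ACADVL itself.

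Of the 4 chains at receptor and transcription factor genes described here, those at PPARG, KLF15 and EBF1 were named by a gene list. The NR1H3 chain was named for reproducible members without a KQ peak, so its lack of KQ was set by that choice. The chain in PPARG held 4 members within 3.69 kb (chr3:12350305-12353997), 1 of them present in both wild-type libraries, and 0 KQ peaks. The site at the internal start printed above had folds of 11.0 pooled, 4.20 in library 1 and 9.28 in library 2. NR1H3, which encodes the oxysterol receptor LXRα, had 5 of the 6 members of its chain (chr11:47254979-47270080), 4 of the 6 present in both wild-type libraries and 0 with KQ. Its strongest member, with its summit 67 bp before the internal start of NR1H3 printed above, had folds of 14.2 pooled, 11.2 and 11.8. KLF15, a zinc finger factor of adipogenesis, kept 1 of 4 members, with a wild-type fold of 9.89 and a pooled KQ fold of 3.61. EBF1, an early B cell and adipocyte factor, had 4 members with folds from 3.98 to 6.25, 0 of them in both wild-type libraries, and 1 with a pooled KQ fold of 4.37.

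The chains with the most peaks lay at genes of several other functions. The chain of 12 peaks began 0.244 kb outside DUSP1, a phosphatase that switches off MAP kinases, and ran outward for 30.0 kb (chr5:172771439-172801480). Of these 12, 7 were present in both wild-type libraries and 2 kept a pooled KQ peak, with 0 in a single KQ library. LAMA4, a laminin chain of basement membranes, held all 11 members of its chain (chr6:112204092-112251781), 5 present in both wild-type libraries and 4 with KQ, 2 of these in both KQ libraries. The LAMA4 member of highest fold had 18.6 pooled, 14.8 and 13.6 with wild type and 4.01 in the pooled KQ list alone. CAPN2, a calcium-dependent protease, had 8 of 10 members (chr1:223701090-223726843), and 1 of the 10 kept a KQ peak. MAP3K7CL had 4 of 10 (chr21:29163010-29196596) with 3 kept in the chain, and GPRIN3 had 3 of 9 (chr4:89292024-89324910) with 0 kept.

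The chains with the most KQ peaks included stretches outside protein-coding genes. The chain nearest to CD93 lay 46.3 kb or more from it, partly in the noncoding gene LINC03125, which held 5 of its 9 summits (chr20:23132638-23162487), and kept 5 of 9 members, with all 9 present in wild-type library 1 and 5 in library 2. Its pooled wild-type folds ran from 4.67 to 9.81, and 0 of its members were present in both KQ libraries. TRAF3IP2, an adaptor of interleukin-17 signalling, held all 8 members of its chain (chr6:111589523-111603201), 5 present in both wild-type libraries and 4 with KQ. The TRAF3IP2 member at chr6:111602549-111602814 was present in every list, with folds of 8.88 pooled, 10.9 and 6.23 with wild type and 7.42 pooled, 7.24 and 5.46 with KQ. PALMD held 6 members (chr1:99661242-99685887), 3 with KQ.

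The chain at the edge of NEAT1, a noncoding RNA that builds nuclear paraspeckles, had 4 members within 3.90 kb (chr11:65418924-65422827), 1 of them with its summit inside that gene. It had all 4 with a pooled KQ peak and 0 with a peak in either KQ library. The wild-type folds were 7.42, 11.7, 7.03 and 4.80 and the pooled KQ folds 4.58, 3.46, 2.49 and 3.51, in order along the chromosome. All 4 were present in wild-type library 1 and 2 in library 2.

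The chains with the highest single peaks each had 1 strong site and neighbours of much lower fold. Many of these neighbours still lay above the median fold of all members, 6.01. In TRHDE, a peptidase gene, the site at chr12:72275090-72275410 had folds of 29.1 pooled, 17.4 and 25.6 with wild type and 14.0 pooled, 8.38 and 10.1 with KQ, and the other 3 members lay between 6.38 and 8.30. The site nearest to PDZD8, 81.1 kb from it, had 27.5 pooled, 21.2 and 14.4 with wild type and 3.02 pooled and 4.44 in KQ library 1. PECAM1, an endothelial adhesion molecule, kept 2 of 4 members, the stronger with 25.6 pooled, 19.6 and 13.1 with wild type and 5.03 pooled, 5.36 and 4.10 with KQ. In IQCM the strongest site had 24.6 pooled, 32.6 and 14.1 with wild type and 8.15 pooled, 5.90 and 7.93 with KQ. All 4 of these strongest sites had a pooled KQ peak. They fall in the highest bin of −log10 q, where 43.8% of members and 36.7% of other wild-type peaks had one.

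Some chains were reproducible at most or all members and had no KQ peak. The chains of this group were named for these 2 traits, so both were set by that choice. Of all 536 chains, 310 had no KQ member. ALG9, a mannosyltransferase of protein glycosylation, held 5 members (chr11:111836463-111846693), all present in both wild-type libraries, with pooled folds from 6.72 to 13.2. MGAT3, an N-acetylglucosaminyltransferase that adds bisecting residues, had all 4 members of its chain present in both (chr22:39453928-39466433), with pooled folds from 9.49 to 18.6. ALDH9A1, an aldehyde dehydrogenase, had 4 of 5 present in both (chr1:165666301-165696094), and the chain 27.5 kb or more from INSIG1, which holds back sterol synthesis, had 4 of 5 (chr7:155252566-155270403), with pooled folds up to 16.5. The NR1H3 chain above belongs to the same group. The ECH1 chain, named for its gene list and its 3 KQ peaks, had pooled wild-type folds from 4.32 to 17.5. Both kinds of chain were chosen by their KQ peaks, so a relation of fold to KQ was not tested here.

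Members lay in genes about as often as other wild-type peaks. The summit was inside a protein-coding gene for 50.6% of members (48.6 to 52.6), against 49.4% of all pooled wild-type peaks, and within 1 kb of a gene end for 6.62% (5.68 to 7.66), against 7.23%. Every member was inside a gene in 198 chains and no member in 188, and 94 chains lay over 50 kb from any protein-coding gene. PRKCH, a protein kinase C gene of 363.5 kb, held the most members, 17 in 4 chains, of which 7 were present in both wild-type libraries and 4 kept a KQ peak. NAV1 held 13 and LAMA4 11. ATXN1, DLC1 and EML6 held 10 each, in 2 chains per gene, and 0 of the 10 in EML6 kept a KQ peak.

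The chains were spread unevenly over the chromosomes. Chromosomes 11 and 1 had the highest shares of their pooled wild-type peaks in chains, 13.9% (165 of 1186) and 13.7% (355 of 2591), and chromosome 1 alone held 74 of the 536 chains. Chromosome 13 had 5.14% (38 of 740) and chromosome X had the lowest share, 0.656% (4 of 610, exact 95% interval 0.179 to 1.67). The members on chromosome 19 kept a KQ peak in 12 of 55 cases (21.8%), against 8.10% of the other wild-type peaks there, and the ANGPTL4, ECH1, LIPE and ETFB chains gave 7 of these 12.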

How the data were processed

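The authors called peaks in each ChIP library and on the pooled libraries of a group. Per the submitters' processing notes, Bowtie2 (version 2), MACS2, bedtools, deepTools and HOMER were used with hg38. The sources used here do not give caller settings or say whether input served as control. Vector ChIP and input libraries were not analysed here. Per peak, the deposited lists give a fold enrichment (a ratio over the caller's background, made by the authors) and −log10 of the q-value. Fold and q were used only to describe, rank or bin peaks. Folds of different lists stand side by side and were not compared.

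Chains, members and gene lists were chosen with earlier results of these data known. Peaks were counted as shared when they overlapped by at least 1 bp. Shares carry exact Clopper-Pearson 95% intervals (scipy 1.17.1). No test was made, since members share regions. RefSeq (GRCh38.p14) supplied gene spans, without exons, introns or UTRs, and start-site sequences, the latter without chromosome 8. Named chains were the 10 with the most peaks, the 10 with the most KQ members, the 5 with the highest fold, all within 50 kb of a PPAR target or adipocyte gene, and the 5 with the most members in both wild-type libraries and no KQ peak. Ties went to the higher summed −log10 q, so not all of the 13 chains with 9 or more peaks or the 16 with 3 or more KQ members are named. Of the chains and genes this rule names, some are not reported here. PRKCH, NAV1, ATXN1, DLC1 and EML6 were named after their counts were seen. The chaining and overlap code was tested on simulated intervals. Alternatives were other linking distances, minimum chain sizes, q limits, overlap rules and single libraries.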

Additional observations from a re-analysis of the deposited data

Results flagged for a closer look

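The mitochondrial chromosome lay outside the chromosomes used, and its peaks exceed the 3 that a count of 0 allows. The pooled wild-type list had 10 peaks there, with a highest fold of 2.67, and the pooled KQ list had 13, with a highest fold of 1.63.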

How the results depend on the processing

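The number of chains and members followed the rule closely. A linking distance of 6.25 kb gave 227 chains with 1020 members, 25 kb 1092 with 5621, a minimum of 3 peaks 1459 with 5292 and a minimum of 5 peaks 211 with 1223. Chains built from 1 wild-type library numbered 155 to 185, with 700 to 839 members. The share of members with a KQ peak was 13.8% with 6.25 kb and 24.3% for members in both wild-type libraries, and between 4.36% and 16.3% when 1 library of either group was left out. The share of chains with a KQ peak was 33.7% with a minimum of 3 peaks, 46.9% with a minimum of 5, and between 18.7% and 48.4% with 1 library left out. Members had a higher KQ share than the other wild-type peaks in 13 of 13 settings compared, by 1.17 to 5.34 percentage points. A limit of 5 kb around gene ends gave 20.5% of members. Leaving out the 4 chains of 8 or more peaks with 4 or more KQ members, chosen after seeing the data, gave 11.5%. No paired analysis was possible because the results come from no test.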
